A study of Solanum tuberosum with 10 samples.

Results

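Potato explants 1 week after cutting were compared with explants sampled at 0 h, in 4 of the 10 RNA sequencing libraries of the study. The 4 libraries were taken by their labels, as the control and the ultrasonicated arm at each of these 2 times. All explants were single-node pieces carrying a leaf, cut from plantlets of the cultivar Desirée that had grown in vitro for 4 weeks. Ultrasonicated explants had stood in liquid Murashige and Skoog medium in an ultrasonic bath, 90 of them in 40 ml in a 50 ml beaker. Whether the control explants also stood in liquid is not stated in the sources used here. Both arms were afterwards kept on the same medium without growth regulators. Each library was made from the pooled RNA of 3 biological replicates, so the comparison had 2 libraries a side, 1 from each arm. The tissue is labelled as stem at 0 h and as stem and plantlet at 1 week, so the time and the tissue sampled cannot be told apart. No cell type or tissue markers could be checked, because the table names too few genes.

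A single-node explant carries an axillary bud, and when it is cut the bud is freed from the shoot tip that held it back. On medium without hormones such a node usually closes its cut surface, grows a shoot from the bud and forms roots of its own. Cutting also sets off the responses to wounding, which in potato include antimicrobial peptides and products of phenylpropanoid metabolism.

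The 4 libraries held 127800099 counts (control, 0 h), 140007599 (ultrasonicated, 0 h), 133040886 (control, 1 week) and 141006176 (ultrasonicated, 1 week). They detected between 23981 and 25786 of the 40430 features listed. Levels are given as CPM, counts scaled to a common library size, after TMM scaling, which corrects for a few very abundant features taking up a library. Where a pair of values is given, the control library comes first and the ultrasonicated library second. The fresh pair means the libraries at 0 h, of which the second is from ultrasonicated explants and is not untreated tissue. The TMM factor was 0.888 and 0.690 at 0 h, and 1.08 and 1.01 at 1 week. For fold differences, a library with no count of a feature was set to a floor of 3 counts, which is 0.0209 to 0.0310 CPM. In bulk tissue, fewer cells of a type and less RNA per cell cannot be told apart.

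The comparison asks which transcripts stood at another level once explants had grown for 1 week, and many did. Of 26147 features tested with edgeR's quasi-likelihood test, 5949 (22.8%) had a Benjamini-Hochberg adjusted p under 0.05 and are referred to as called. Of the 26147, 3013 (11.5%) were called higher at 1 week and 2936 (11.2%) called lower, and 9595 had an unadjusted p under 0.05, called or not. With TMM scaling the falls were larger than the rises, with a median log2 change of -2.40 among called falls and 1.93 among called rises. Over all features it was 0.06. Beyond 16-fold lay 669 falls and 442 rises, and beyond 4-fold 1785 and 1443. Each of the 3013 rises and 2935 of the 2936 falls had the same direction in both arms. The calls rest on these same arms, so the shared direction largely follows from them. Over all features tested, 30.5% had opposite directions in the arms. With total counts as the only scaling 4988 features were higher and 2123 lower, and the median feature moved from 0.06 to 0.46. Without the ultrasonicated 1-week library 2465 features were called (1058 higher, 1407 lower). Without the ultrasonicated 0 h library they numbered 1624 higher and 2450 lower, and without the control 1-week library 1982 and 2023.

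The called falls had a higher mean level over the 4 compared libraries than the called rises. Features that fell had a median of 40.4 CPM over the 4 libraries, against 16.8 CPM for those that rose. Among the 78 features with a mean of at least 1000 CPM, 34 fell (43.6%) and 3 rose (3.85%). Between 100 and 1000 CPM 30.3% fell and 14.6% rose, while between 1 and 10 CPM the shares were 7.39% and 11.7%. The mean level comes from the libraries behind the calls, and a high 0 h level both raises it and favours a fall. The shares are thus a description only. At 24 h the median log2 level was 4.38 and 4.46 for falls, and 4.00 and 3.86 for rises. At 48 h it was 4.21 and 4.25 for falls, and 4.25 and 4.40 for rises. At 4 weeks it was 4.07 and 4.09 for falls, and 3.83 and 3.70 for rises. Falls thus stood above rises at 24 h and 4 weeks, but not at 48 h. Feature length differed little, with a median of 3116 bp for rises, 3080 bp for falls and 2968 bp for all features tested.

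The features that fell held 39.9% of all counts in the control library at 0 h and 45.6% in the ultrasonicated one, and 12.1% and 10.2% at 1 week. Those that rose held 6.66% and 5.05% at 0 h, and 21.5% and 24.9% at 1 week. These shares follow the calls and describe their weight in the libraries. Among the 10 most abundant features of each library, 8 (control) and 10 (ultrasonicated) at 0 h were called lower, and 2 in each arm at 1 week. Called higher were 0 in each arm at 0 h, and 3 (control) and 2 (ultrasonicated) at 1 week. Over all features 11.2% were called lower and 11.5% higher. The ranks use the same values as the calls, so these counts are a description only. The arms shared 4 of their 10 most abundant features at 0 h and 7 at 1 week. The number of features above 1000 CPM was 97 and 187 at 0 h, and 48 and 74 at 1 week.

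A small set of features went from no count to a clear level or the reverse. In 58 features neither 0 h library had a count and both 1-week libraries had at least 1 CPM, and 50 of these were called. The reverse held for 36 features, of which 35 were called. Over all features 22.8% were called. Both sets were chosen on values that the test also used, so most of their calls follow from that choice.

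The table pairs 22 gene models with a symbol, and these are the genes whose function can be stated. They stand for 21 distinct symbols, of which 20 also occur in the RefSeq gene table of potato. Of the 20 models tested, 2 rose, 2 fell and 16 were not called, a share close to the 22.8% of all features. Their median log2 change was -0.07, against 0.06 over all features. The groups did not overlap in 12 of the 20 (6 above and 6 below), where 59.6% of all features did not overlap (32.2% above and 27.3% below).

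**Figure D1:**
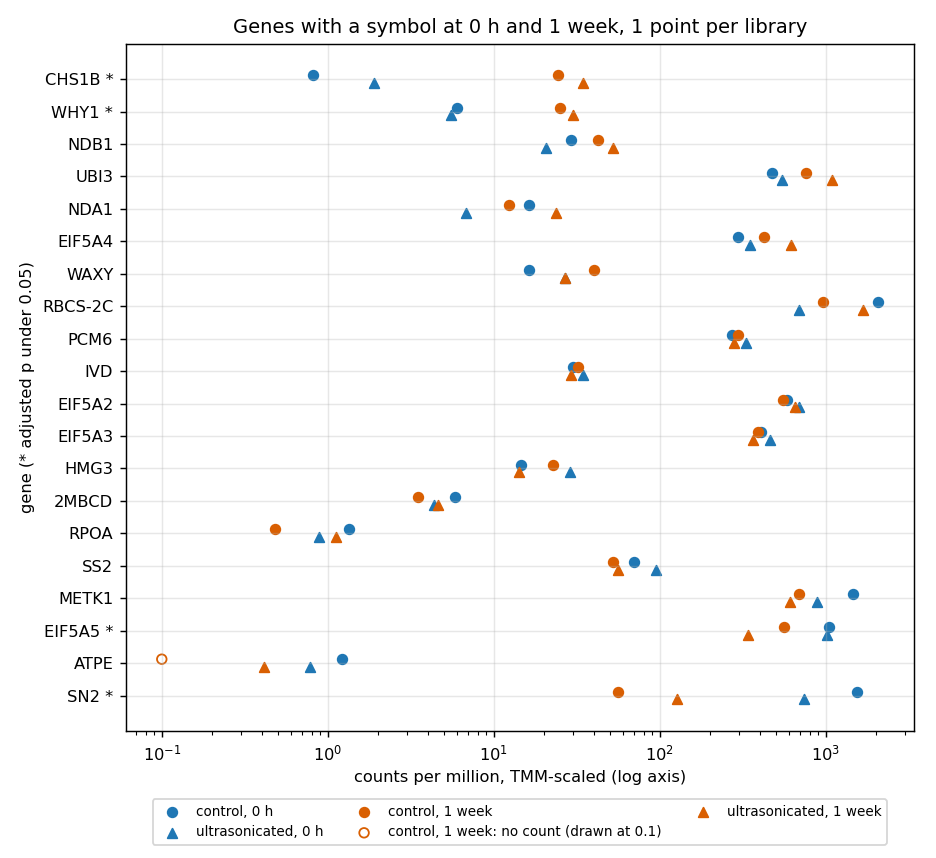
TMM-scaled CPM on a log axis for the 20 gene models with a symbol that were tested, 1 point per library, with circles for control and triangles for ultrasonicated explants. CHS1B and WHY1 lie to the right at 1 week and SN2 and EIF5A5 to the left, with no overlap between the times, and the points of RBCS-2C, NDA1 and HMG3 cross between the arms.

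In secondary metabolism, CHS1B rose the most of the genes with a symbol. It encodes a chalcone synthase, the enzyme that opens the flavonoid branch of phenylpropanoid metabolism (PGSC0003DMG400029620, chromosome 9, 58356999 to 58359082). It had 0.810 and 1.90 CPM in the fresh pair and 24.4 and 34.4 CPM in the 1-week pair. At 24 h it already had 23.8 and 30.1 CPM. Both 1-week libraries stood far above both 0 h libraries, a 30.1-fold difference in the control arm (counting interval 24.5 to 37.4) and an 18.1-fold one in the ultrasonicated arm (15.6 to 21.0). The log2 change was 4.51 (SE 0.51, edgeR adjusted p = 0.00112), and its change did not differ detectably between arms (log2 difference -0.74, SE 0.92, edgeR adjusted p = 0.770). Near-identical chalcone synthase copies exist in potato, and reads shared between them cannot be told apart here.

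HMG3 encodes a hydroxymethylglutaryl-CoA reductase, an enzyme of the mevalonate pathway to sterols and other isoprenoids (PGSC0003DMG400018679, chromosome 3, 3011536 to 3015241). Its levels were 14.6 and 28.9 CPM in the fresh pair and 22.7 and 14.1 CPM in the 1-week pair. The control arm was thus 1.56 times its 0 h level and the ultrasonicated arm 0.488 times, and the groups overlapped. Over both arms the log2 difference was -0.24 (edgeR adjusted p = 0.689). METK1, an S-adenosylmethionine synthase that supplies methyl groups and the precursor of ethylene (PGSC0003DMG400018292, chromosome 1, 78724855 to 78727233), had 1456 and 887 CPM in the fresh pair and 685 and 606 CPM in the 1-week pair. All of its 1-week values lay below its 0 h values, but the log2 difference of -0.85 (SE 0.29) did not pass edgeR's test (adjusted p = 0.0682). It passed in 4 of 18 alternative fits, among them DESeq2 (adjusted p = 0.0186).

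In defence and DNA binding, SN2 fell and WHY1 rose. SN2 encodes snakin-2, a small cysteine-rich antimicrobial peptide (PGSC0003DMG400001598, chromosome 1, 87145671 to 87146801). It had 1539 and 735 CPM in the fresh pair and 56.0 and 127 CPM in the 1-week pair. At 24 h it was already down to 207 and 229 CPM. In control explants it went from the 48th most abundant feature to the 3692nd, and in ultrasonicated explants from the 281st to the 1518th. The fall was to 0.0364 of the 0 h level in the control arm (counting interval 0.0356 to 0.0372) and to 0.173 in the ultrasonicated arm (0.170 to 0.175). The order of the arms crossed, since ultrasonicated explants had 0.477 of the control level at 0 h and 2.26 times it at 1 week. The log2 change was -3.70 (SE 0.52, edgeR adjusted p = 0.00259). It lay between -2.85 (without the control 0 h library) and -4.47 (without the ultrasonicated 0 h library), with -3.10 and -4.37 without the control and the ultrasonicated 1-week library, and was called each time.

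WHY1 encodes a Whirly protein, a family that binds single-stranded DNA in the nucleus and in organelles and was described in potato as an activator of a pathogenesis-related gene (PGSC0003DMG400017627, chromosome 5, 5903924 to 5907317). It had 6.00 and 5.54 CPM in the fresh pair and 25.2 and 30.1 CPM in the 1-week pair. Its 24 h levels, 17.7 and 16.8 CPM, lay between them. The 2 libraries of each time were close to each other, and the change was 4.19-fold in control and 5.44-fold in ultrasonicated explants. The log2 change was 2.24 (SE 0.31, edgeR adjusted p = 0.00259). PCM6, a calmodulin that carries calcium signals (PGSC0003DMG400022693, chromosome 1, 5358830 to 5361994), had 271 and 329 CPM in the fresh pair and 296 and 280 CPM in the 1-week pair, with overlapping groups (log2 difference -0.05, SE 0.27, edgeR adjusted p = 0.913).

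Of the 4 related translation factor genes, 1 fell and 3 were not called. The EIF5A genes encode eIF5A, a factor of translation elongation that carries the modified amino acid hypusine. EIF5A5 (PGSC0003DMG400024558, chromosome 3, 55475040 to 55477312) had 1045 and 1020 CPM in the fresh pair and 556 and 337 CPM in the 1-week pair. Its levels at 24 h (292 and 297 CPM) and at 48 h (261 and 296 CPM) were below those at 1 week in both arms. The 0 h libraries were nearly level, and both 1-week libraries lay below them, at 0.532 and 0.330 of the 0 h value. EIF5A5 fell by 1.23 on the log2 scale (SE 0.29, edgeR adjusted p = 0.0207). Its call ended without the ultrasonicated 0 h library (edgeR adjusted p = 0.0523), without the ultrasonicated 1-week library (log2 -0.93, 0.154), with total counts (-0.82, 0.0685) and with the 4 libraries alone (-1.28, 0.109).

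EIF5A4 (PGSC0003DMG400026829, chromosome 1, 51719395 to 51722322) had 295 and 347 CPM in the fresh pair and 424 and 612 CPM in the 1-week pair. Its groups did not overlap, yet the log2 difference of 0.68 (SE 0.31) did not pass (edgeR adjusted p = 0.153), and it did with total counts (1.10, adjusted p = 0.0254). EIF5A2 (PGSC0003DMG400007830, chromosome 12, 2312441 to 2315856) had 583 and 692 CPM in the fresh pair and 551 and 654 CPM in the 1-week pair, or 0.945 and 0.946 of the 0 h level. EIF5A3 (PGSC0003DMG400011137, chromosome 7, 776894 to 780590) had 406 and 458 CPM in the fresh pair and 388 and 362 CPM in the 1-week pair. Neither of the latter genes was called (log2 -0.08 and -0.20, edgeR adjusted p = 0.861 and 0.586), and with total counts both differences were above 0 (0.34 and 0.21). Whether the 4 genes differ from each other was not tested.

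UBI3, which encodes ubiquitin fused to a ribosomal protein (PGSC0003DMG400005199, chromosome 1, 63211724 to 63212425), had 471 and 546 CPM in the fresh pair and 763 and 1087 CPM in the 1-week pair. It stood above its 0 h level in both arms, at 1.62 and 1.99 times, but did not pass the test (log2 0.86, SE 0.31, edgeR adjusted p = 0.0845), and with total counts it did (1.27, adjusted p = 0.0135).

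In plastids and carbon metabolism no gene was called. RBCS-2C encodes a small subunit of Rubisco, the enzyme that fixes carbon dioxide (PGSC0003DMG400012666, chromosome 2, 41192215 to 41193945). It had 2057 and 686 CPM in the fresh pair and 960 and 1664 CPM in the 1-week pair. The control arm was lower at 1 week, at 0.467 of its 0 h level, and the ultrasonicated arm was higher, at 2.43 times. The difference over both arms was therefore close to 0 (log2 0.02, SE 0.59, edgeR adjusted p = 0.992), and the difference between arms was 2.38 (SE 0.85, unadjusted p = 0.0310 and edgeR adjusted p = 0.268).

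SS2 and WAXY encode starch synthases, WAXY the granule-bound enzyme that makes amylose. SS2 (PGSC0003DMG400001328, chromosome 2, 46189568 to 46196715) had 69.7 and 94.7 CPM in the fresh pair and 52.4 and 55.7 CPM in the 1-week pair (log2 -0.60, SE 0.35, edgeR adjusted p = 0.257). WAXY (PGSC0003DMG400012111, chromosome 8, 56782186 to 56785790) had 16.2 and 26.7 CPM in the fresh pair and 39.9 and 27.0 CPM in the 1-week pair (log2 0.60, SE 0.58, edgeR adjusted p = 0.487). In WAXY the control arm was 2.46 times its 0 h level and the ultrasonicated arm 1.01 times. At the intermediate times WAXY had been far higher, with 155 and 106 CPM after 24 h, then 221 and 74.1 CPM after 48 h, so its 1-week level lay nearer that of fresh explants.

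Another 4 models carry the symbols of plastid genes but lie on nuclear chromosomes in the table, and none had more than 159 counts in a library. ATPE, named for a subunit of the plastid ATP synthase (PGSC0003DMG400025106, chromosome 5, 1659655 to 1660475), had 138 and 75 counts at 0 h, and 0 and 59 at 1 week. RPOA, named for a subunit of the plastid RNA polymerase (PGSC0003DMG400014075, chromosome 12, 3289301 to 3291579), had 153 and 85 counts at 0 h, and 69 and 159 at 1 week. Neither was called (edgeR adjusted p = 0.450 and 0.839). The 2 models named RPS18, for a plastid ribosomal protein, had between 0 and 7 counts and were not tested. Reads from the plastid genes themselves and from nuclear copies cannot be told apart at these loci.

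In mitochondria, NDB1 stood just outside the threshold. NDB1 and NDA1 encode alternative NAD(P)H dehydrogenases, which pass electrons to ubiquinone without pumping protons, NDB1 on the outer and NDA1 on the inner face of the inner membrane. NDB1 (PGSC0003DMG400021670, chromosome 10, 4157577 to 4163576) had 29.0 and 20.7 CPM in the fresh pair and 42.5 and 52.0 CPM in the 1-week pair. Both 1-week libraries lay above both 0 h libraries, with a log2 difference of 0.92 (SE 0.28, edgeR adjusted p = 0.0511), and 8 of 18 alternative fits called it. NDA1 (PGSC0003DMG400004168, chromosome 6, 3238431 to 3242949) had 16.4 and 6.84 CPM in the fresh pair and 12.4 and 23.6 CPM in the 1-week pair. Its control arm was at 0.754 of the 0 h level and its ultrasonicated arm at 3.44 times (log2 over both arms 0.77, SE 0.57, edgeR adjusted p = 0.358).

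IVD and 2MBCD encode acyl-CoA dehydrogenases that act in the breakdown of branched-chain amino acids. IVD (PGSC0003DMG400008113, chromosome 11, 41104262 to 41111799) had 30.1 and 34.2 CPM in the fresh pair and 32.1 and 29.0 CPM in the 1-week pair. Its 24 h levels, 72.5 and 140 CPM, had been well above both. 2MBCD (PGSC0003DMG400026901, chromosome 6, 54061915 to 54066400) had 5.81 and 4.36 CPM in the fresh pair and 3.51 and 4.58 CPM in the 1-week pair. Both genes had overlapping groups and were not called (edgeR adjusted p = 0.906 and 0.596).

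The arms did not always move together, and 7 of the 20 genes (35%) had opposite directions in them, against 7966 (30.5%) of all 26147 features tested. Within each arm there is 1 library a side and no test, and a feature was set apart when its exact 95% binomial interval, which covers counting error only, lay wholly beyond 2-fold. In control explants 5120 features (19.6%) were higher by this rule and 4876 (18.6%) lower, and in ultrasonicated explants 6372 (24.4%) and 5799 (22.2%). Both arms were higher for 3021 features and lower for 2857, and 737 were opposite, 386 of them higher in control and 351 higher in ultrasonicated explants. Of the called features, 2133 rises and 2246 falls were beyond 2-fold in both arms. Conversely, 888 features that were higher and 611 that were lower in both arms by this rule were not called. The spread of log2 changes over features was wider in the ultrasonicated arm (SD 1.58) than in control (1.35), and the log2 ratio between arms had an SD of 0.911 at 0 h and 0.707 at 1 week.

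**Figure D2:**
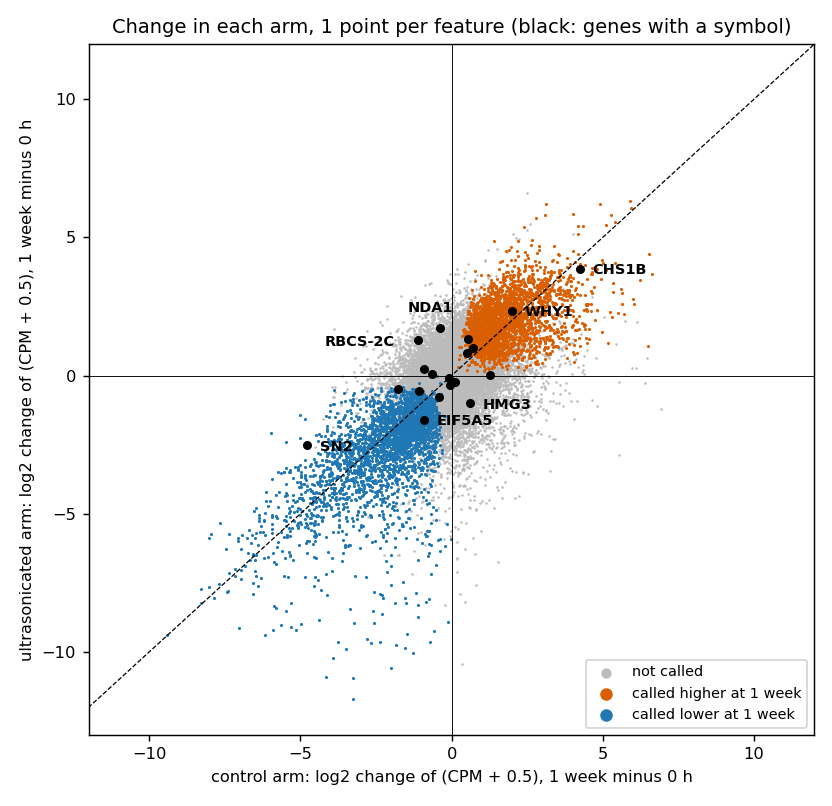
Log2 change of (CPM + 0.5) from 0 h to 1 week for each feature tested, in control explants (horizontal axis) and in ultrasonicated explants (vertical axis), with called rises in orange, called falls in blue and genes with a symbol in black. The 3013 called rises lie in the upper right and 2935 of the 2936 called falls in the lower left, where a tail of points far below the dashed line of equal change fell mainly in ultrasonicated explants.

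Whether the change itself differed between arms was tested with a term for the arm effect at each of these times. Of 26147 features 38 passed (0.145%), all with a more negative change in ultrasonicated explants, and 4160 (15.9%) had an unadjusted p under 0.05. Without the 48 h libraries 0 features passed by edgeR, with 3475 at an unadjusted p under 0.05. Without the 24 h libraries 391 passed, 33 of them with a more positive change in ultrasonicated explants, and without those at 4 weeks 202, 18 of them more positive. DESeq2 passed 1889, of which 696 were more positive. All 38 had been higher in ultrasonicated than in control explants at 0 h, by a median of 72.8 times, and in 3 of them the control library had no count. At 1 week the ratio of ultrasonicated to control had a median of 0.669. Their median level was 771 CPM in ultrasonicated explants at 0 h, against 10.3 CPM in the control library at 0 h and 6.31 to 11.1 CPM at 1 week. The called falls include 18 of the 38. The spread in this test rests on 3 pairs of libraries at other times. In simulated counts it recovered few changes and some of its calls were false, so the 38 are given as candidates.

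PGSC0003DMG400002724 (chromosome 9, 3978234 to 3979062) had 12.9 and 2061 CPM in the fresh pair and 6.98 and 6.58 CPM in the 1-week pair. PGSC0003DMG400006271 (chromosome 9, 9686202 to 9691845) had 8.11 and 452 CPM in the fresh pair and 4.88 and 2.62 CPM in the 1-week pair. In both, 1 library, the ultrasonicated one at 0 h, stood far above the others, and both are among the called falls. In the other direction the smallest p-values belonged to PGSC0003DMG400011344 (chromosome 1, 58029029 to 58030494; log2 difference 3.67, edgeR adjusted p = 0.0566) and PGSC0003DMG400033693 (chromosome 3, 45373076 to 45375604; 3.91, 0.0569), which did not pass. Of the 11 other fits the former passed in 5, with adjusted p from 1.23e-08 (DESeq2) to 0.0964, and the latter in 6, from 3.72e-13 (DESeq2) to 0.0894. The latter had 712 and 142 CPM in the fresh pair and 114 and 342 CPM in the 1-week pair. Among the genes with a symbol 0 passed by edgeR, and 5 (SN2, RBCS-2C, HMG3, ATPE and NDA1) had an unadjusted p under 0.05. For SN2 the difference was 2.25 (SE 0.49, edgeR adjusted p = 0.138) and for HMG3 -1.67 (SE 0.44, adjusted p = 0.180).

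Most called features have no name in the sources used here, so they are described by position. The largest rises at a mean of at least 5 CPM were PGSC0003DMG400020388 (chromosome 12, 11649568 to 11651621) and PGSC0003DMG400010076 (chromosome 2, 44554789 to 44556581). PGSC0003DMG400020388 had no count in either library at 0 h, and 2389 counts in control and 925 in ultrasonicated explants at 1 week. Against a floor of 3 counts per library, this is 629-fold higher in control and 210-fold higher in ultrasonicated explants (edgeR adjusted p = 0.0148). The counting intervals start at 511-fold and 170-fold. PGSC0003DMG400010076 also went from no count to 3199 and 272 counts, 842-fold and 61.6-fold higher against the same floor (edgeR adjusted p = 0.00475). Its counting intervals start at 684-fold and 49.8-fold. In both the control arm had the higher level at 1 week. Their levels at 24 h were no more than 0.337 CPM and at 4 weeks no more than 1.59 CPM, so both peaked at 1 week among the 5 times.

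The largest falls were PGSC0003DMG400025797 (chromosome 1, 84659395 to 84660407) and PGSC0003DMG400008265 (chromosome 10, 43594344 to 43595395). PGSC0003DMG400025797 had 9693 and 11037 counts at 0 h and none in either arm at 1 week (edgeR adjusted p = 0.000603). Against the floor this is 4092-fold and 5413-fold lower, with counting intervals up to 0.000301 and 0.000227 of the 0 h level. PGSC0003DMG400008265 went from 6386 and 5647 counts to none (edgeR adjusted p = 0.00183). Against the floor this is 2696-fold and 2770-fold lower, with counting intervals up to 0.000456 and 0.000444 of the 0 h level. At 4 weeks they were back at 2.41 and 2.61 CPM in control explants, and at 0.652 and 0.338 CPM in ultrasonicated ones, far below the 56.3 to 114 CPM of fresh explants.

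Some called features lay side by side. Along the chromosomes, 85 stretches held at least 3 neighbouring tested features that were all called higher, with 9.99% of the rises in them, and 105 held at least 3 that were all called lower, with 13.7% of the falls. The longest stretch of rises had 12 features and the longest of falls had 9. Adjacent features that do not overlap had the same sign of change in 55.1% of 24791 pairs. Where one feature lay wholly inside another the same sign was seen in 84.6% of 622 pairs on opposite strands and 78.6% of 365 pairs on the same strand, so overlapping features cannot be counted as separate evidence.

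The longest stretch covers 12 features on chromosome 4 (8226183 to 8238456), each 321 to 646 bp long and 4 of them overlapping the one before. Together they had 0 counts in control and 3 in ultrasonicated explants at 0 h, and 5745 and 671 at 1 week. This is 1512-fold in the control arm, against a floor of 3 counts (counting interval from 1229), and 152-fold in the ultrasonicated arm (51.8 to 739). At 1 week the summed level was 40.0 CPM (control) against 4.72 CPM (ultrasonicated), and at every other time it was 3.44 CPM or less.

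On chromosome 3 (746291 to 780587) 11 features that did not overlap rose, from summed levels of 43.3 and 84.9 CPM to 745 and 678 CPM, or 17.2-fold in control and 7.99-fold in ultrasonicated explants. After 24 h their sum was still 66.8 and 63.4 CPM, and after 48 h it was 249 and 320 CPM. On chromosome 7 (41602845 to 41955645) 6 features rose from 234 and 520 CPM to 1770 and 2640 CPM, and had 1224 and 995 CPM at 24 h already. Both stretches were lower again at 4 weeks, at 294 and 232 CPM on chromosome 3 and 527 and 405 CPM on chromosome 7.

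The longest stretch of falls has 9 features on chromosome 4 (63929478 to 64009841), with summed levels of 2458 and 2031 CPM in the fresh pair and 409 and 271 CPM in the 1-week pair. On chromosome 9 (54679959 to 54751640) 8 features fell together from 361 and 250 CPM to 5.95 and 5.85 CPM, 60.6-fold and 42.7-fold lower, and were already at 10.9 and 5.96 CPM at 24 h. On chromosome 3 (47493172 to 47539789) 7 features fell from 2264 and 2392 CPM to 344 and 324 CPM. At 4 weeks they had 834 and 803 CPM, above the 1-week level and below the 0 h level in both arms. Where neighbours are near-identical copies they can share reads, and levels of single features within a stretch are then uncertain.

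**Figure D3:**
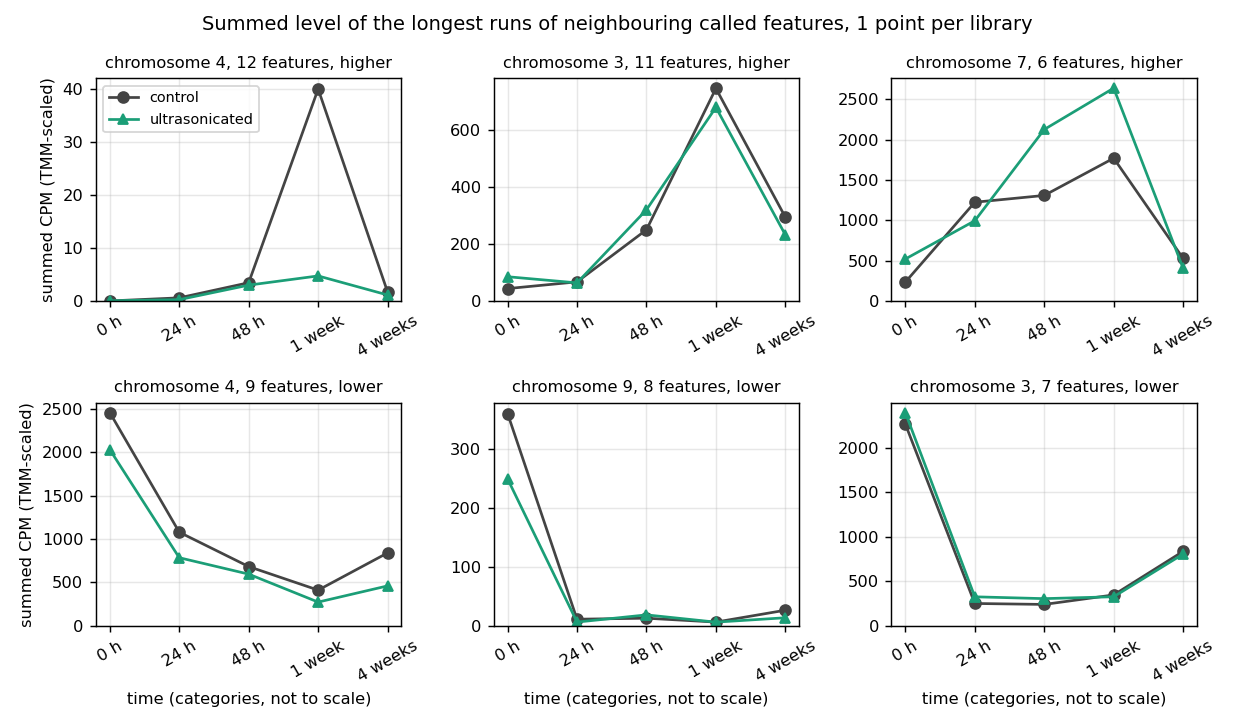
Summed TMM-scaled CPM of the 6 longest stretches of neighbouring called features at the 5 times, with 1 point per library and lines joining the libraries of an arm. The stretch on chromosome 4 with 12 features reached 40.0 CPM in the control arm and 4.72 CPM in the other at 1 week, while in the other 5 the arms lay closer together.

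Calls were spread over all chromosomes. The share called lay between 21.0% and 24.5% on chromosomes 1 to 12, and was 14.0% on chromosome 0 of the table's numbering. Over chromosomes 1 to 12 rises took between 10.1% (chromosome 3) and 13.7% (chromosome 5) of the tested features, and falls between 8.67% (chromosome 11) and 13.4% (chromosome 3). Chromosomes 1, 2, 3 and 4 had more falls than rises, and chromosomes 5 to 12 more rises than falls. These shares are a description with no test, and the balance of rises and falls depends on the scaling.

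**Figure D4:**
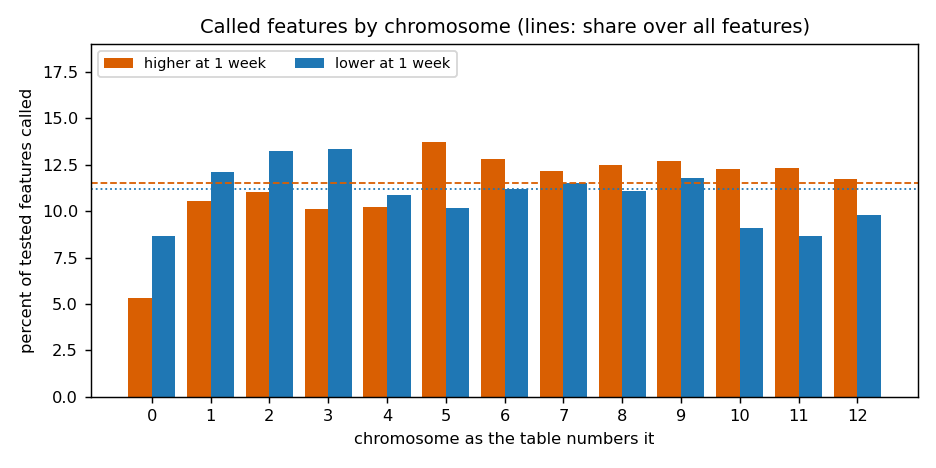
Percent of the tested features of each chromosome that were called higher (orange) or lower (blue) at 1 week, with lines at the shares over all features, 11.5% and 11.2%. Chromosome 5 has the tallest orange bar (13.7%), chromosome 3 the tallest blue bar (13.4%), and chromosome 0 the lowest orange bar (5.33%).

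Noncoding features were rarely called. The table lists 1409 of them, of which 313 had a count in these 4 libraries and 199 were tested. With edgeR 0 rose and 1 fell, against 22.8% of all features called. Among all features with a mean under 1 CPM, only 3.96% were called higher and 1.07% lower. Whether low counts account for the few noncoding calls was not tested. The median log2 change of the noncoding features was -0.48. The 1 that fell, ENSRNA049460668 (chromosome 2, 47248139 to 47248334), has no class name, and it had 81 and 1041 counts at 0 h, and 8 and 27 at 1 week (edgeR adjusted p = 0.0152). Most RNAs of these classes carry no poly(A) tail, and kits for mRNA are not made to capture them.

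Ribosomal RNA features had a median log2 difference of -0.94 over 58 tested, and their summed level was 3246 and 6122 CPM in the fresh pair and 2546 and 2535 CPM in the 1-week pair. The arms stood much further apart at 24 h (22448 and 648 CPM) and at 4 weeks (1237 and 354 CPM), so these sums vary widely between libraries of a time. Of the 58, 44 had a negative and 14 a positive log2 difference. The large subunit class alone had 1072 and 2621 CPM in the fresh pair and 584 and 747 CPM in the 1-week pair. The class named 5_8S_rRNA went the other way, with a median log2 difference of 1.31 over 4 tested. It summed to 3.03 and 2.12 CPM in the fresh pair and 4.91 and 6.47 CPM in the 1-week pair. Small nucleolar RNAs, grouped here with U3, had a median of 0.79 over 25 tested, with summed levels between 6.32 and 8.21 CPM in the 4 libraries. Of the 25, 15 had a positive and 10 a negative log2 difference. The U3 class alone had a median of -0.32 over 9 tested, 7 of them negative. Spliceosomal RNAs, the core of the splicing machinery, had a median of 0.61 over 25 tested. Within them the U1 class summed to 7.01 and 1.79 CPM in the fresh pair and 0.689 and 1.06 CPM in the 1-week pair, while the U2 class summed to 1.85 and 1.49 CPM, and then 3.05 and 3.14 CPM. Signal recognition particle RNA, which directs proteins to the endoplasmic reticulum, had 11.7 and 14.3 CPM in the fresh pair and 6.92 and 5.93 CPM in the 1-week pair. At 24 h it had 82.4 and 3.25 CPM, an arm difference wider than that between the fresh and the 1-week pair. No member of these classes was called by edgeR.

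The other times place the 1-week state among the rest of the series. Features that were called higher had a median log2(CPM + 0.5) of 2.93 in control and 2.83 in ultrasonicated explants at 0 h, 4.00 and 3.86 at 24 h, 4.25 and 4.40 at 48 h, 4.61 and 4.79 at 1 week, and 3.83 and 3.70 at 4 weeks. Features that were called lower had 5.82 and 6.05 at 0 h, 4.38 and 4.46 at 24 h, 4.21 and 4.25 at 48 h, 3.63 and 3.49 at 1 week, and 4.07 and 4.09 at 4 weeks. The 0 h and 1-week values follow from the choice of features, and the other 3 times share no library with them.

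By their mean over the arms, 74.2% of the features called lower were nearer to the 1-week than to the 0 h level at 24 h, 81.0% at 48 h and 77.2% at 4 weeks. Of the features called higher, 56.2% were nearer to the 1-week level at 24 h and 75.1% at 48 h, and 39.4% at 4 weeks. At 4 weeks, then, fewer of the rises than of the falls were on the 1-week side, a description with no test.

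**Figure D5:**
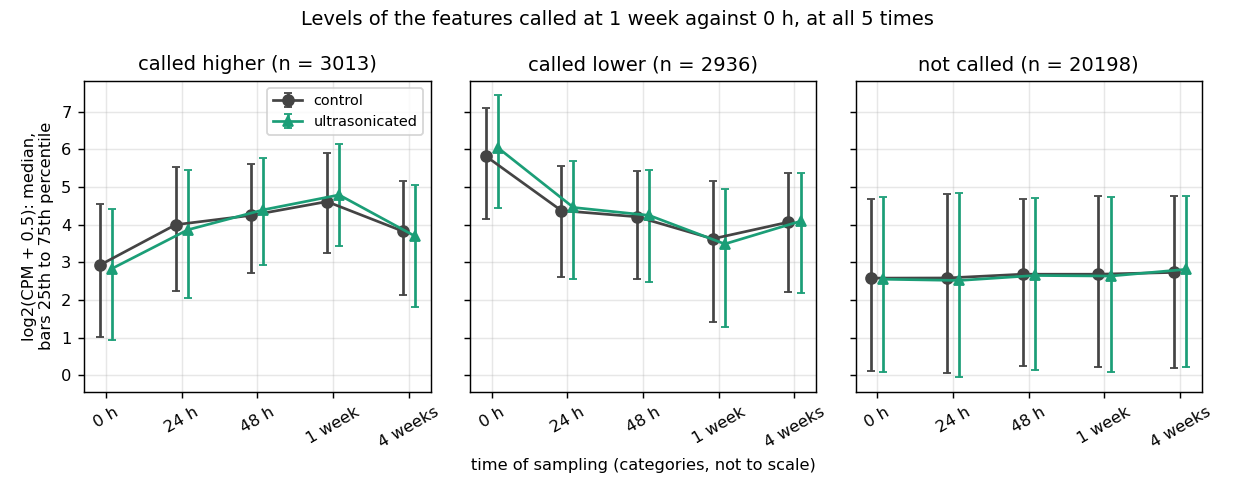
Median log2(CPM + 0.5) of the features called higher (3013), called lower (2936) and not called (20198) at 1 week against 0 h, in each of the 10 libraries, with bars from the 25th to the 75th percentile over features. The called falls drop from 5.82 and 6.05 at 0 h to 4.38 and 4.46 at 24 h, while the called rises climb to 4.61 and 4.79 at 1 week and are at 3.83 and 3.70 at 4 weeks.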

How the data were processed

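RNA sequencing was done on explants of 2 arms at 5 times, 1 library each. The submitters' processing notes name HISAT2 2.1.0, FastQC 0.11.5 and Trim Galore 0.5.0. A strand-specific kit for mRNA and paired 150 bp reads were used, per the labels' protocols. The deposited table gives unnormalized counts of 39021 gene models and 1409 noncoding features, of which 11264 had no count. No source used here gives the build, annotation, counting program or strand setting, so overlapping and antisense features cannot be told apart, and coordinates are as the table gives them. None of the feature identifiers matched the RefSeq gene table (SolTub_3.0), 0 had a description, and lists chosen by description found no gene. All value columns were matched to samples by their labels.

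From the deposited counts, features were filtered with filterByExpr grouped by time, scaled by TMM and tested in R 4.3.3 with edgeR 4.0.16 (quasi-likelihood F-test, Benjamini-Hochberg adjusted p under 0.05 over 26147 features). The model had time and arm as additive terms over all 10 libraries, with arm as a block between libraries of a time. The arms stand in for replicates, so the spread behind the p-values mixes variation between pooled libraries with any arm effect that differs between times. It does not measure variation between plants. SEs are the log2 change divided by the root of F and are approximate. A second model gave 0 h and 1 week an arm effect of their own. Ratios within an arm have exact 95% Clopper-Pearson intervals for counting error only, since PCR duplicates are not told apart, and folds against a library without counts use a floor of 3 counts per library. A pseudocount of 0.5 CPM was added for log2 levels. Scripts were tested on simulated counts. Alternatives were median-ratio and total-count scaling, other filters, DESeq2 1.42.0, limma-voom (limma 3.58.1), a test against 2-fold, and libraries left out.

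Named were all gene models with a symbol. By identifier, the 2 largest called rises and falls at a mean of at least 5 CPM were named, if both arms moved the same way and the groups did not overlap, the 2 smallest p per direction of the arm difference, and called noncoding features. The comparison, lists and rules were chosen with earlier results of these data known.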

Additional observations from a re-analysis of the deposited data

Results flagged for a closer look

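For a pair of features the change from 0 h to 1 week differed between the arms by the test of that difference. In PGSC0003DMG400006271 (chromosome 9, 9686202 to 9691845) the log2 change was lower in ultrasonicated than in control explants by -6.70 (SE 0.50, edgeR adjusted p = 0.0340). It was at 0.602 of the 0 h level in control and at 0.00580 in ultrasonicated explants. In PGSC0003DMG400002724 (chromosome 9, 3978234 to 3979062) the difference was -7.41 (SE 0.56, edgeR adjusted p = 0.0340), with 0.542 of the 0 h level in control and 0.00319 in ultrasonicated explants. At 24 h, 48 h and 4 weeks both features had between 5.66 and 45.8 CPM in either arm, against 452 and 2061 CPM in the ultrasonicated library at 0 h. Both calls rest on that 1 library, and neither passed once the 48 h libraries were left out (adjusted p = 0.0579 for each by edgeR).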

How the results depend on the processing

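Single genes were followed in 18 fits tried in place of the one reported, which do not include the test against 2-fold. CHS1B, WHY1 and SN2 were called in all 18, EIF5A5 in 14, NDB1 in 8 and METK1 in 4, and no called value of a named gene turned sign. RBCS-2C, not called in any, lay between -0.82 and 0.99 on the log2 scale. Total counts gave 4988 higher features, 5 genes with a symbol higher and 1 lower, and 2 noncoding calls, and put the uncalled PCM6, HMG3, 2MBCD, IVD and RPOA above 0. With the 4 libraries alone 2370 features were called (863 higher, 1507 lower), with 1 gene with a symbol lower and 5 noncoding calls. The test against 2-fold called 2569 (1054 higher, 1515 lower). The fit reported has the arm as its block; without this replicate block (no arm term) 6617 features were called, 5782 of them shared, and noncoding calls numbered 4. They were 0 with the stricter filter, 9 with DESeq2 and 3 with limma-voom. DESeq2 called 8478 features.

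The arm difference was called for 100 features without a filter, 24 with the stricter filter, 58 without rRNA and 1889 with DESeq2. Calls more positive in ultrasonicated explants were 5 without a filter, 2 without rRNA and 1 with limma-voom. It could not be fitted with 1 of the 4 compared libraries left out or with these 4 alone. Beyond 4-fold within an arm lay 2492 rises and 2568 falls in control, and 2903 and 3272 in ultrasonicated explants. With a library or a pair of libraries left out, calls ran from 2465 to 6263 features, higher from 1058 to 2999, lower from 1407 to 3264, genes with a symbol from 3 to 5 (2 to 3 higher, 1 to 2 lower), noncoding from 0 to 6, and the arm difference from 0 (without 48 h) to 391 (without 24 h). The cause of these shifts was not tested. Rises outnumbered falls in the fit reported, and falls outnumbered rises with median-ratio factors (2785 and 3050), the stricter filter (2983 and 3042), DESeq2 (4216 and 4262), the 4 libraries alone, the test against 2-fold, and with the 48 h libraries (2256 and 2337), the control 0 h library (2999 and 3264), the ultrasonicated 0 h library (1624 and 2450), the control 1-week library (1982 and 2023) or the ultrasonicated 1-week library (1058 and 1407) left out. ATPE, RPOA and most noncoding classes had few counts, and whether depth limited their calls was not tested.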
